A study of Mus musculus with 2 samples.

Results

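The complement system was examined through 30 genes, taken from a fixed list of its components, regulators and receptors and matched to the RefSeq accessions of the deposited tables. The list was chosen with earlier results of these data known. All 30 genes were found, each under 1 accession, among 26440 genes in all. RNA from the livers of 11-day-old BALB/c mice was sequenced in 1 library from SRSF2-/- mice, described by the submitters as a liver-specific knockout, and 1 library from wild-type mice. No treatment is given for either genotype, and both share strain, tissue and age. SRSF2 is a serine/arginine-rich splicing factor that recognises exon sequences. The sources used here do not give the driver of the deletion, the cells it reached or the number of animals behind each library. The comparison asks how liver complement transcripts of young mice differ with this genotype. With 1 library each there is no replicate, so no test against the spread between animals was possible, and every value describes these libraries.

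Complement is a set of plasma proteins that mark and lyse microbes, and hepatocytes make most of them. The classical pathway starts from antibody-bound C1q, the lectin pathway from collectins and ficolins that bind microbial sugars, and the alternative pathway from slow activation of C3 that surfaces without inhibitors let run on. All of them cleave C3 and then C5, after which C5b gathers C6, C7, C8 and C9 into a pore called the membrane attack complex. Soluble and membrane-bound regulators hold this back on host cells, and receptors for the fragments C3a and C5a sit mainly on myeloid cells.

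Counted reads numbered 22111605 in the knockout and 22407743 in the wild-type library. Srsf2 itself stood at 11.8 FPKM in the knockout and 27.9 FPKM in the wild-type library (FPKM, a read density scaled for the length of the transcript and the size of the library). Hepatocyte markers were abundant in both, at 93.2 to 25492 FPKM in the knockout and 90.6 to 50399 FPKM in the wild-type library over 10 of 10 genes. Markers of other tissues had higher levels in the knockout library: 7 exocrine pancreas markers summed to 517 FPKM in the knockout and 7.15 FPKM in the wild-type library, and 7 skeletal muscle markers to 65.0 FPKM in the knockout and 0.158 FPKM in the wild-type library. All tested genes of both lists, 6 and 5, were at least 2-fold higher (6 and 4 after centring), with 1 pancreas and 4 muscle markers at 0 reads in the wild-type library. Over all genes tested, 19.2% were at least 2-fold higher (5.67% after centring). The 5 tested muscle genes, and Cpa1, Ctrb1, Prss2 and Clps of the pancreas, reached 1 FPKM in the knockout library only. They therefore passed the filter of 1 FPKM in either library only because they were higher there. Where these transcripts came from, and their part in the complement values, was not tested. Xist, which coats the inactive X chromosome, stood at 0.0138 FPKM in the knockout and 27.4 FPKM in the wild-type library, and the Y-linked gene Ddx3y at 7.02 FPKM in the knockout, with 0 reads in the wild-type library. These 2 genes were chosen after their values were seen. Sex and genotype cannot be told apart here.

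Of the 19 tested components of the cascade, 16 had less transcript in the knockout library, against 15.5% of all genes tested. Hc and the 3 C8 genes of the terminal part had the lowest ratios. C5 (gene Hc), the 3 chains of C8, and C9 were 5.12-fold to 8.73-fold lower, while C3, the hub of the cascade, was 1.94-fold lower and several inhibitors differed by less than that. The receptors for C3a and C5a and the alternative pathway stabiliser properdin were at least 2-fold higher as deposited, as were 19.2% of all genes tested. After centring, only the C3a receptor stayed past 2-fold, against 5.67% of all genes tested. The 30 members summed to 3911 FPKM in the knockout and 6563 FPKM in the wild-type library, a ratio of 0.596. They took 1.48% of the knockout reads (1.48% to 1.49%) and 2.75% of the wild-type reads (2.74% to 2.76%), with exact 95% binomial intervals that cover counting error only. C3 alone made up 33.5% of the summed FPKM in the knockout and 38.7% in the wild-type library.

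Sizes were judged on log2((knockout FPKM + 1) / (wild-type FPKM + 1)), with a size rule of 2-fold, over genes with at least 1 FPKM in either library. The pseudocount of 1 understates the difference of low genes. Of the 30 members, 27 passed this filter, and Cfd, C7 and Cd46 did not. Of those 27, 10 (37.0%) were at least 2-fold lower, against 2.95% of all 12477 genes tested, and 3 (11.1%) were at least 2-fold higher, against 19.2% of all genes tested. The higher members were C3ar1, C5ar1 and Cfp. The median log2 ratio was -0.64 over the members and 0.55 over all genes tested. The deposited values were thus shifted upward as a whole in the knockout library. Rescaled without the 20 most abundant genes, the median over all genes tested was 0.28. Alb, which encodes serum albumin, took 6.17% of the knockout and 12.2% of the wild-type reads. The part of abundant transcripts in the shift was not tested. Relative to the median of all genes, the members stood at -1.19, with 15 of 27 (55.6%) at least 2-fold lower against a background of 6.66%, and 1 (3.70%) at least 2-fold higher against 5.67%. Over all genes tested, the calls in either direction were 86.7% higher ones as deposited and 46.0% after centring. By role, the 19 tested components of the cascade had a median of -1.17, with 10 lower and 1 higher, and the 8 tested regulators and receptors a median of -0.06, with 0 lower and 2 higher. Centred, these counts were 14 lower and 0 higher for the components, and 1 lower and 1 higher for the regulators and receptors. In a bulk sample, fewer cells of a type and less RNA per cell cannot be told apart.

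**Figure D1:**
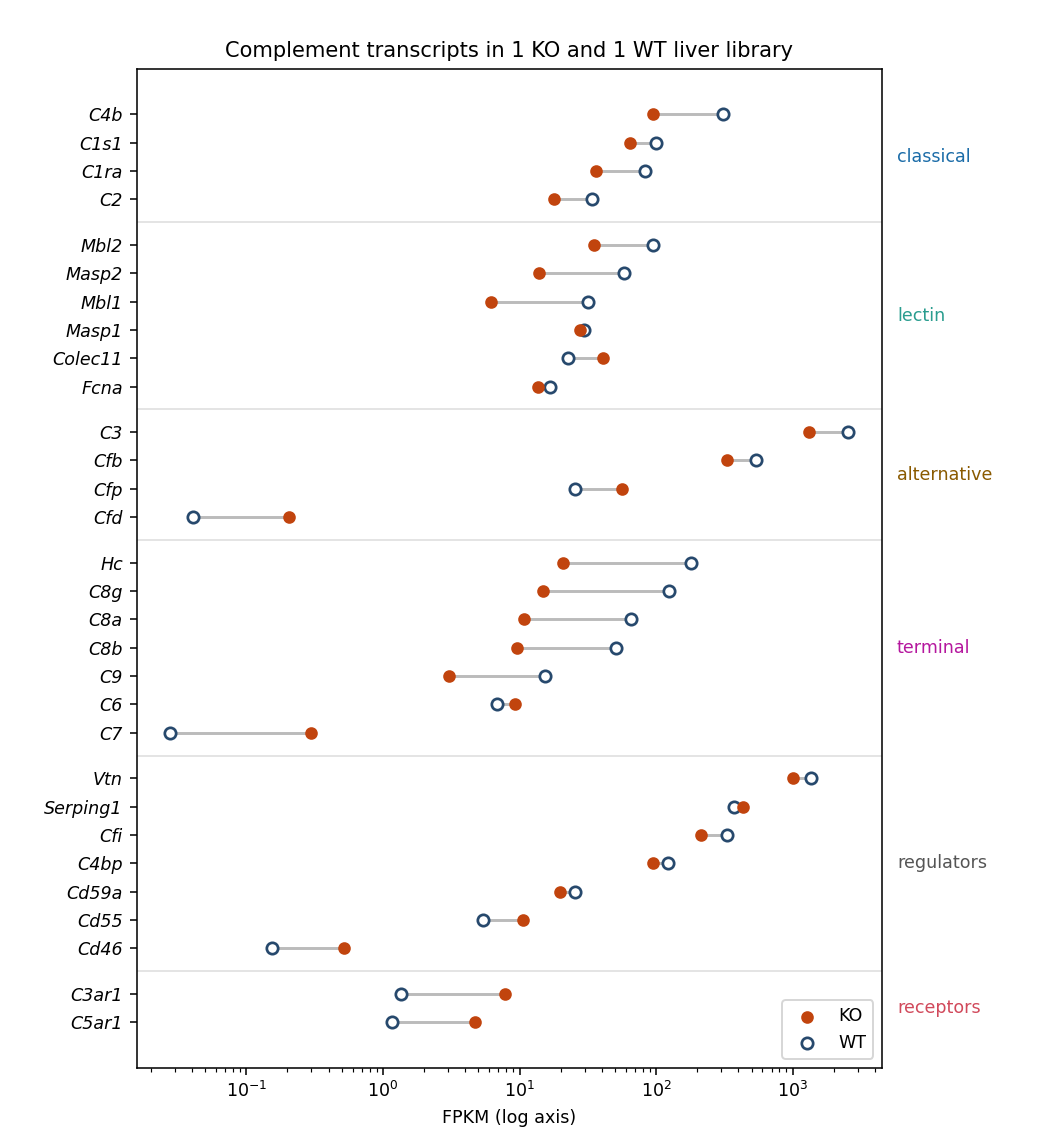
Level of each of the 30 complement transcripts in FPKM (log axis), with the knockout library as a filled point and the wild-type library as an open point, 1 library each, grouped by role. The terminal genes Hc, C8g, C8a, C8b and C9 have wide gaps to the left, as does the lectin gene Mbl1, and C3ar1 and C5ar1 lie to the right of their wild-type values.

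By their values, the membrane attack complex genes divided into 5 that were lower and 2 that were not. Of the 6 tested, 5 were at least 2-fold lower as deposited and 5 after centring, against 2.95% and 6.66% of all genes tested. Hc, whose product C5 is cleaved to the chemoattractant C5a and the complex-starting C5b, had 20.6 FPKM in the knockout and 180.3 FPKM in the wild-type library. That is 8.73-fold lower, with a 95% exact (Clopper-Pearson) interval of the read ratio from 8.41 to 9.07. Only 29 of the 12477 tested genes had a lower log2 ratio than Hc (-3.07), and by FPKM Hc was number 14 of the 30 members in the knockout and number 7 in the wild-type library.

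C8 is built from an alpha and a beta chain that insert into the membrane and a gamma chain of the lipocalin family. C8g, the gamma chain gene, had 14.9 FPKM in the knockout and 125 FPKM in the wild-type library, 8.39-fold lower (7.66 to 9.20). C8a had 10.8 FPKM in the knockout and 65.3 FPKM in the wild-type library, 6.03-fold lower (5.64 to 6.44). C8b had 9.61 FPKM in the knockout and 50.9 FPKM in the wild-type library, 5.30-fold lower (4.85 to 5.79). All 3 chains were thus lower, and they also lay closer to each other in the knockout library: C8g was 1.55 times C8b there and 2.46 times C8b in the wild-type library. C8a and C8b are direct neighbours in the RefSeq gene table of GRCm38.p6, and C8a was 1.13 times C8b in the knockout and 1.28 times in the wild-type library. C9, the subunit that polymerises into the wall of the pore, had 3.02 FPKM in the knockout and 15.5 FPKM in the wild-type library, 5.12-fold lower (4.26 to 6.18). The place of C9 among the members depends on the pseudocount: with 5 in place of 1 its log2 ratio was -1.35, less deep than Masp2 (-1.74), Mbl1 (-1.70) and C4b (-1.65).

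C6, which binds C5b to begin the complex, went the other way at 9.34 FPKM in the knockout and 6.84 FPKM in the wild-type library, a ratio of 1.37 (1.22 to 1.53). Its log2 ratio was 0.40 as deposited and -0.15 relative to the median of all genes, so its direction depends on the scaling. C7, which anchors the growing complex to the membrane, was barely detected, with 21 reads in the knockout and 2 reads in the wild-type library. The ratio was 10.6, with an interval from 2.60 to 93.5. C6, C7 and C9 lie near each other in the gene table, with 1 protein-coding gene between C6 and C7 and 6 between C7 and C9, and as deposited they did not share a direction. Within a library, C5 transcript exceeded C6 transcript 2.21 times in the knockout and 26.4 times in the wild-type library, on the FPKM scale. The 7 terminal genes summed to 68.6 FPKM in the knockout and 444 FPKM in the wild-type library, a ratio of 0.155, the lowest of the 6 roles.

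**Figure D2:**
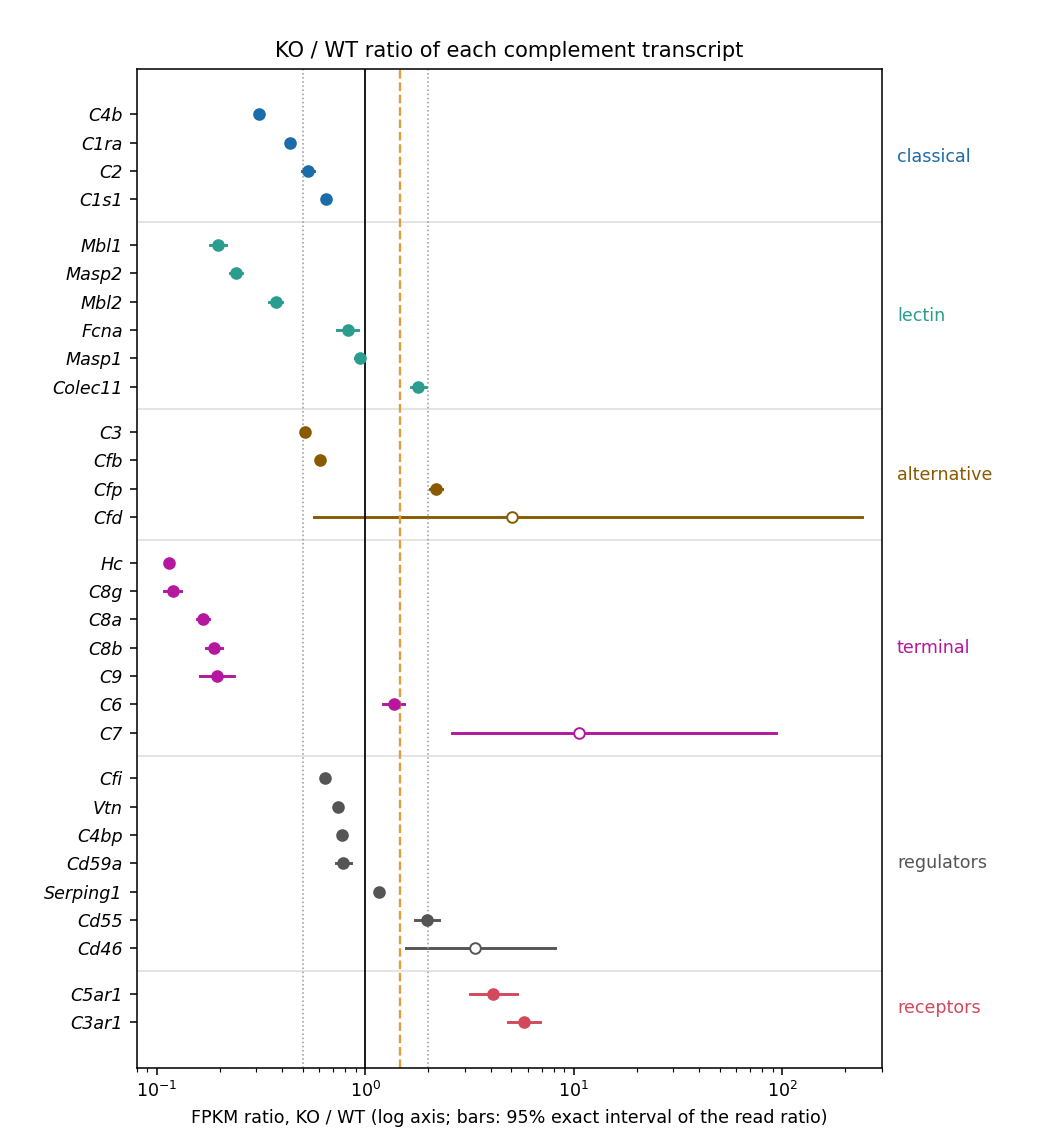
FPKM ratio of the knockout over the wild-type library for each of the 30 members (log axis), with bars for the 95% exact interval of the read ratio, which covers counting error only. The solid line marks a ratio of 1, the dotted lines the 2-fold size rule, the dashed line the median of all tested genes on the log2(FPKM + 1) scale, and open points the 3 members under 1 FPKM in both libraries, which have the widest intervals.

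Promoter sequences were read for members with a start site in the RefSeq promoter table of GRCm38.p6, which covers 250 bases before to 50 bases after the start and gave windows for 24 of the 30 genes. Each window was searched on both strands for the letters of 7 motifs. The HNF1 motif GTTAATNAT was found in Hc and C4bp, and in 0.801% of all 32851 windows of that length. The C/EBP motif TTGCNNAA was found in C1ra, C1s1, C3 and C9, and in 10.8% of all windows. TATAAA was found in C3, C3ar1, C7, Hc and Vtn, and in 13.6% of all windows. HNF4 (CAAAGTCC, 1.42% of all windows), FOXA (TGTTTAC, 3.65%), NF-kB (GGGACTTTC, 0.353%) and STAT (TTCCNGGAA, 1.15%) letters were in 0 of the 24. No match overlapped that of another motif, and a match describes these letters only, not a bound site. The 4 windows printed here were chosen after the values were seen, because they pair genes that hold the same letters and lie far apart in the size of their difference. Each runs 5′ to 3′ on the strand of the gene, with the HNF1 match in capitals for Hc and C4bp and the C/EBP match in capitals for C9 and C3.
Hc, chr2:35061363-35061662, minus strand: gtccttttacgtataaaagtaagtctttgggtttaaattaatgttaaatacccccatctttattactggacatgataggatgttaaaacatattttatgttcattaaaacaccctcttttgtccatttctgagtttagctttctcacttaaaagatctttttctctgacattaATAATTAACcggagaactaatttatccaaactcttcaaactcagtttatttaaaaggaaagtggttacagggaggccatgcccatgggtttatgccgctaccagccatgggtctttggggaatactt
C4bp, chr1:130661569-130661868, minus strand: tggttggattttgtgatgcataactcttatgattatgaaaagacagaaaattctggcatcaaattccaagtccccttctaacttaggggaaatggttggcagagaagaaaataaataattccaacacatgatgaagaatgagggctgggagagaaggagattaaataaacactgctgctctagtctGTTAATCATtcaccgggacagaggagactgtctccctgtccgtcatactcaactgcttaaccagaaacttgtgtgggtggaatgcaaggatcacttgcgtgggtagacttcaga
C9, chr15:6445096-6445395, plus strand: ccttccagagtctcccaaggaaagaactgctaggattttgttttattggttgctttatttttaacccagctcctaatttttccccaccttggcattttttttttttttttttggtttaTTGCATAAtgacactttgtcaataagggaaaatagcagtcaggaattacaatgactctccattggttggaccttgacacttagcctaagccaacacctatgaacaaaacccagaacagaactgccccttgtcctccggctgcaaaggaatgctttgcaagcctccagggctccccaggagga
C3, chr17:57228087-57228386, minus strand: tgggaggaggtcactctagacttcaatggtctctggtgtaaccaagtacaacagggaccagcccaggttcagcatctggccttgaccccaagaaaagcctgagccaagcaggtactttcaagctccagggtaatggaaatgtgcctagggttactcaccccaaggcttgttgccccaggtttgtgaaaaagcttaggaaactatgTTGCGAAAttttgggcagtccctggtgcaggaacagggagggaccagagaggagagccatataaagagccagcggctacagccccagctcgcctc
The HNF1 letters begin 77 bases before the table's start in Hc, where they read on the opposite strand, and 64 bases before it in C4bp, where they read on the strand of the gene. Hc was 8.73-fold lower in the knockout, and C4bp, a regulator, 1.29-fold lower. The C/EBP letters begin 132 bases before the start in C9, which was 5.12-fold lower, and 45 bases before it in C3, which was 1.94-fold lower.

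The 4 classical pathway members were all lower in the knockout library, 2 of them past the size rule (4 after centring). Over all genes tested, 15.5% had a log2 ratio below 0, and 2.95% were at least 2-fold lower (6.66% after centring). C4b encodes C4, which is split to form the C3 convertase shared by the classical and lectin pathways. It had 95.05 FPKM in the knockout and 308 FPKM in the wild-type library, 3.24-fold lower (3.18 to 3.30). C1ra, the protease of the C1 complex that activates C1s, had 36.5 FPKM in the knockout and 83.6 FPKM in the wild-type library, 2.29-fold lower (2.19 to 2.40). C1s1, the C1s protease that cleaves C4 and C2, had 64.4 FPKM in the knockout and 99.7 FPKM in the wild-type library, 1.55-fold lower (1.49 to 1.60). C2, the catalytic subunit of that convertase, had 17.9 FPKM in the knockout and 33.7 FPKM in the wild-type library, 1.88-fold lower (1.76 to 2.01). C1s1 and C2 passed 2-fold relative to the median of all genes, at -1.18 and -1.43, and C2 also when the libraries were rescaled without the 20 most abundant genes, at -1.19.

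C1ra, C1s1 and C4b each have a closely similar duplicate, and the sources used here do not say how shared reads were divided. The duplicates went the same way. C1rb had 5.68 FPKM in the knockout and 13.01 FPKM in the wild-type library, and C1ra stood at 6.42 times C1rb in both. C4a, also called sex-limited protein, had 4.30 FPKM in the knockout and 11.7 FPKM in the wild-type library, and C1s2 had 1.25 FPKM in the knockout and 2.06 FPKM in the wild-type library. C1ra, C1s1, C1rb and C1s2 follow each other directly in the gene table, after C1rl, a C1r-like protease gene at 23.5 FPKM in the knockout and 40.6 FPKM in the wild-type library. C2 lies directly beside Cfb, its counterpart in the alternative pathway. Cfb transcript was 18.3 times C2 transcript in the knockout and 16.1 times in the wild-type library.

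The lectin pathway was uneven, with 3 of 6 members at least 2-fold lower, against 2.95% of all genes tested, and 0 higher, against 19.2%. After centring, 3 were lower and 0 higher, against 6.66% and 5.67%. Mbl1, a mannose-binding lectin that recognises microbial sugars, had 6.23 FPKM in the knockout and 31.6 FPKM in the wild-type library, 5.07-fold lower (4.64 to 5.55). Mbl2, the other mannose-binding lectin of the mouse, had 35.3 FPKM in the knockout and 94.7 FPKM in the wild-type library, 2.68-fold lower (2.495 to 2.89). Masp2, the protease that cleaves C4 and C2 once these lectins have bound, had 13.9 FPKM in the knockout and 58.3 FPKM in the wild-type library, 4.18-fold lower (3.92 to 4.47).

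The other lectin pathway members lay nearer to the wild-type level or above it. Masp1, which activates Masp2, had 27.9 FPKM in the knockout and 29.6 FPKM in the wild-type library, a ratio of 0.943 (0.897 to 0.991). Masp1 therefore stood at 2.005 times Masp2 in the knockout and 0.508 times Masp2 in the wild-type library. Fcna, a ficolin gene whose product is known from macrophages and plasma of mice, had 13.8 FPKM in the knockout and 16.7 FPKM in the wild-type library, a ratio of 0.822 (0.732 to 0.922). Colec11, a collectin that forms heteromers with the product of Colec10, had 40.8 FPKM in the knockout and 22.7 FPKM in the wild-type library, a ratio of 1.798 (1.66 to 1.95). Colec10 had 13.1 FPKM in the knockout and 14.0 FPKM in the wild-type library. Colec11 transcript thus stood at 6.54 times Mbl1 in the knockout and 0.717 times Mbl1 in the wild-type library.

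Among the alternative pathway genes and C3, C3 and Cfb were lower by less than 2-fold as deposited and past 2-fold after centring, and properdin was higher. C3 had 1311 FPKM in the knockout and 2543 FPKM in the wild-type library, 1.94-fold lower (1.93 to 1.95), and ranked highest of the members in both. Its log2 ratio of -0.96 lay just short of the size rule as deposited, and it was -1.51 relative to the median of all genes. Cfb, factor B, which pairs with C3b in the alternative convertase, had 329 FPKM in the knockout and 542 FPKM in the wild-type library, 1.65-fold lower (1.62 to 1.68), with a log2 ratio of -0.72 as deposited, -1.27 centred and -1.05 without the 20 most abundant genes. Cfp, properdin, which stabilises that convertase and is made largely by myeloid cells, had 55.8 FPKM in the knockout and 25.6 FPKM in the wild-type library, 2.18-fold higher (2.05 to 2.32). After centring, Cfp lay within 2-fold at 0.54. Cfd, factor D or adipsin, the protease that cleaves factor B and a product of fat cells, had 5 reads in the knockout and 1 read in the wild-type library. Its ratio of 5.06 has an interval of 0.566 to 239 and cannot be placed on either side of 1.

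Among the regulators, 0 of 6 tested members passed 2-fold in either direction as deposited, with 4 below and 2 above a ratio of 1. Over all genes tested, 2.95% were at least 2-fold lower, 19.2% at least 2-fold higher and 15.5% below a ratio of 1. Centred, 1 of the 6 was lower and 0 higher, against 6.66% and 5.67%, and 5 lay below 0. The median log2 ratio of the 6 was -0.35 as deposited and -0.90 relative to all genes. Vtn, vitronectin, which keeps the forming membrane attack complex out of membranes, had 1011 FPKM in the knockout and 1372 FPKM in the wild-type library, 1.36-fold lower (1.34 to 1.37). Cfi, factor I, the protease that inactivates C3b and C4b, had 213 FPKM in the knockout and 332 FPKM in the wild-type library, 1.56-fold lower (1.52 to 1.59). Cfi was the regulator that passed 2-fold lower after centring, at -1.19. C4bp, which binds C4b and serves as a cofactor of factor I, had 94.99 FPKM in the knockout and 122 FPKM in the wild-type library, 1.29-fold lower (1.24 to 1.34). Serping1, the C1 inhibitor, which blocks C1r, C1s and the lectin pathway proteases, had 433 FPKM in the knockout and 371 FPKM in the wild-type library, a ratio of 1.17 (1.14 to 1.19). Its log2 ratio of 0.22 turned to -0.33 relative to the median of all genes. The 4 soluble regulators together summed to 1752 FPKM in the knockout and 2197 FPKM in the wild-type library, a ratio of 0.798.

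Membrane regulators were less abundant. Cd59a, which blocks C9 from joining the pore, had 19.8 FPKM in the knockout and 25.3 FPKM in the wild-type library, a ratio of 0.784 (0.720 to 0.853). Cd55, decay-accelerating factor, which takes C3 convertases apart, had 10.6 FPKM in the knockout and 5.39 FPKM in the wild-type library, a ratio of 1.97 (1.74 to 2.25). Cd55 was the highest of the tested regulators by ratio, at 0.86 as deposited and 0.31 relative to all genes. Cd46, a cofactor of factor I that in mice is known mainly from the testis, had 30 reads in the knockout and 9 reads in the wild-type library, a ratio of 3.37 (1.56 to 8.08). Cd59b and Cd55b, the duplicates of Cd59a and Cd55, stood at 0.985 and 0.1201 FPKM in the knockout and at 1.09 and 0.0427 FPKM in the wild-type library.

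The anaphylatoxin receptors had the highest ratios of the tested members. C3ar1, the receptor for C3a, had 7.77 FPKM in the knockout and 1.35 FPKM in the wild-type library, 5.76-fold higher (4.85 to 6.88). C5ar1, the receptor for C5a on neutrophils and macrophages, had 4.75 FPKM in the knockout and 1.16 FPKM in the wild-type library, 4.10-fold higher (3.19 to 5.32). After centring, C3ar1 remained past 2-fold at 1.35 and C5ar1 lay at 0.86. C5ar2, the second receptor for C5a and the direct neighbour of C5ar1, had 1.77 FPKM in the knockout and 0.621 FPKM in the wild-type library. C5ar2 reached 1 FPKM in the knockout library only, so it passed the filter only because it was higher there. Its log2 ratio lay within 2-fold, at 0.77 as deposited and 0.22 centred. C3ar1 and C5ar1 were higher as deposited, while transcripts of C3 and C5, the source of their ligands, were lower.

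Markers of macrophages were also higher as deposited. All 8 measured markers of the 10 listed had a log2 ratio above 0, as did 84.5% of all genes tested, and 4 of the 8 were past 2-fold higher (2 after centring), against backgrounds of 19.2% and 5.67%. They summed to 565 FPKM in the knockout and 218 FPKM in the wild-type library. Neutrophil markers were mostly below 0 (7 of 8, against 15.5% of all genes tested), with sums of 121 FPKM in the knockout and 222 FPKM in the wild-type library. Past 2-fold lower were 3 of 8 and past 2-fold higher 0 (centred, 7 and 0). The lower share over all genes tested was 2.95%, and 6.66% centred. Mpo and Elane reached 1 FPKM in the wild-type library only, so they passed the filter only because they were lower in the knockout. No measured marker of either type was at 0 reads in either library. The part of these cells in the receptor, properdin and Fcna values was not tested. Hepatocyte markers had a median log2 ratio of -0.92, with 4 of 10 lower and 1 higher (7 and 1 after centring). Over all genes tested, 2.95% were lower and 19.2% higher (6.66% and 5.67% after centring). Alb was at -0.98, close to C3, and Hnf4a, a transcription factor gene of hepatocytes, was at 0.04, with 93.2 FPKM in the knockout and 90.6 FPKM in the wild-type library. Of the terminal genes, C6 lay at 0.40 and C7 did not pass the filter. The other 5, Hc, C8a, C8b, C8g and C9, were set apart by these same values. They lay between -3.07 and -2.03, below the lowest of the 10 hepatocyte markers at -1.75. The lectin pathway genes Mbl1 (-2.17) and Masp2 (-1.99) and the carboxypeptidase gene Cpb2 (-1.83) also lay below that marker, Mbl1 below C9 as well. With a pseudocount of 5 in place of 1, Masp2 was at -1.74, Mbl1 at -1.70 and C9 at -1.35, none of them below -1.75. The place of these genes against the hepatocyte markers therefore depends on the pseudocount. These ratios come from the same libraries, and no test of the difference was possible.

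**Figure D3:**
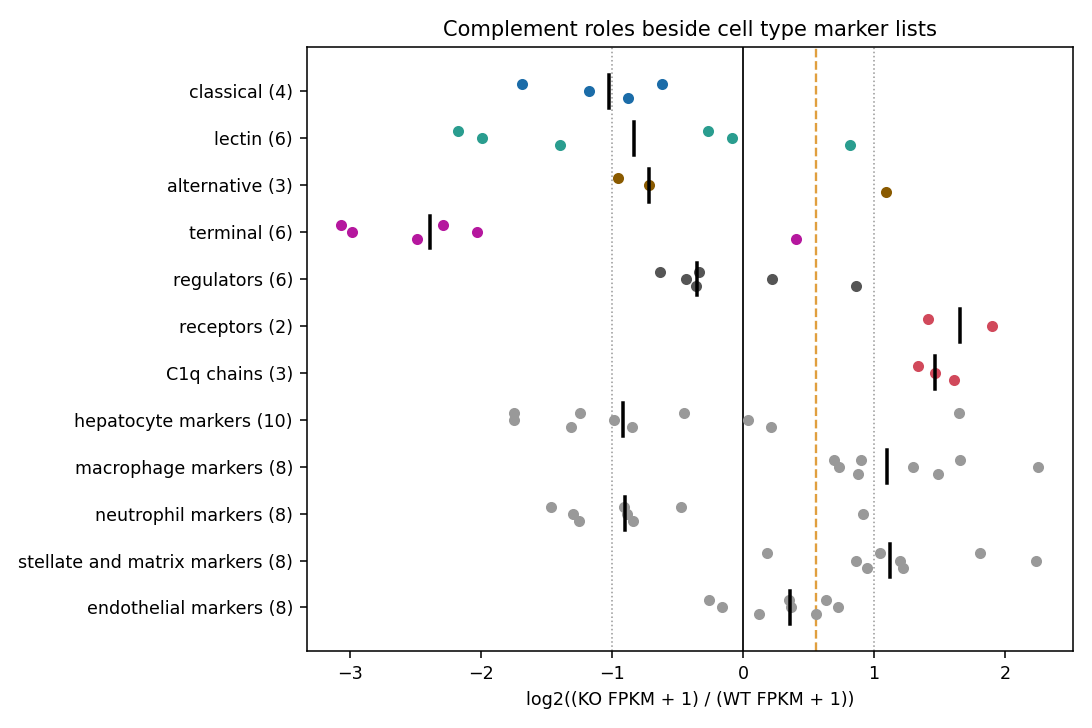
Log2 ratio of the knockout over the wild-type library for tested genes of each complement role, the C1q chains and 5 cell type marker lists, with the number of genes in brackets, 1 point per gene and a black bar at the median. The solid line marks 0, the dotted lines 2-fold and the dashed line the median of all tested genes at 0.55; terminal genes apart from C6, and the lectin pathway genes Mbl1 and Masp2, lie to the left of the hepatocyte markers, and the receptors and C1q chains lie among the macrophage markers.

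Stellate and matrix markers were also higher, with 5 of 8 past 2-fold (2 after centring). Endothelial markers had 0 of 8 past 2-fold in either direction. Of 6 tested bile duct markers, 4 were past 2-fold higher (2 after centring). Over all genes tested, 2.95% were past 2-fold lower and 19.2% past 2-fold higher (5.67% higher after centring). Krt7, Epcam and Cldn4 stood at 0.402, 0.786 and 0.125 FPKM in the wild-type library. These 3 bile duct markers passed the filter only because they were higher in the knockout library. Of 8 adipocyte markers, 2 reached 1 FPKM, of which 1 was past 2-fold higher. The higher one, Cidec, reached 1 FPKM in the knockout library only (0.484 FPKM in the wild-type library). At 0 reads were 5 adipocyte markers in the wild-type library and 1 in the knockout. The part of these cell types in the complement values was not tested.

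A further list of 26 complement genes outside the 30 members was examined, of which 22 were tested. At least 2-fold lower values were found for 4 of the 22 (18.2%, background 2.95%), and at least 2-fold higher values for 6 (27.3%, background 19.2%). Centred, 6 (27.3%) were lower, against 6.66% of all genes tested, and 1 (4.55%) was higher, against 5.67%. The median log2 ratio of this list was 0.25 as deposited and -0.30 relative to all genes, so its direction depends on the scaling. The 4 lower genes were C1rb and C4a, given above, Cpb2 and Cpn2. Cpb2 and Cpn2, which encode a plasma carboxypeptidase and the regulatory subunit of carboxypeptidase N, enzymes that inactivate C3a and C5a, were 3.59-fold and 3.12-fold lower. Cpn1, the catalytic subunit of carboxypeptidase N, had 113 FPKM in the knockout and 133 FPKM in the wild-type library, and Cr1l, a convertase inhibitor of mouse cell membranes also called Crry, had 17.3 FPKM in the knockout and 27.1 FPKM in the wild-type library.

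C1q, the recognition molecule of the classical pathway, is made mainly by macrophages, and its 3 chains were higher together. C1qa had 112 FPKM in the knockout and 44.0 FPKM in the wild-type library, C1qb 229 FPKM in the knockout and 74.5 FPKM in the wild-type library, and C1qc 175 FPKM in the knockout and 62.7 FPKM in the wild-type library. The chains were 2.56-fold to 3.07-fold higher, and C1qb passed 2-fold after centring. The macrophage markers given above were higher in the same library, and their part in the C1q values was not tested. Set against its protease partner, C1qb stood at 6.27 times C1ra in the knockout and 0.891 times C1ra in the wild-type library. The complement receptor subunits Itgax and Itgb2 of myeloid cells were 6.41-fold and 2.74-fold higher, at 2.70 and 13.4 FPKM in the knockout and 0.421 and 4.87 FPKM in the wild-type library. Both lay within 2-fold after centring, at 0.83 and 0.74. Itgax, with 45 reads in the wild-type library, passed the filter only because it was higher in the knockout library. Vsig4, a C3b receptor of Kupffer cells, the resident macrophages of the liver, had 57.8 FPKM in the knockout and 29.5 FPKM in the wild-type library. Clu, clusterin, a soluble inhibitor of the membrane attack complex, had 1319 FPKM in the knockout and 635 FPKM in the wild-type library. That is 2.08-fold higher (2.05 to 2.11), and after centring Clu lay within 2-fold at 0.50.

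The remaining genes of this list lay within 2-fold or were hardly detected. Itgam, the partner of Itgb2 in complement receptor 3, had 2.93 FPKM in the knockout and 1.63 FPKM in the wild-type library. Cd93, a membrane protein of endothelial and myeloid cells, had 5.97 FPKM in the knockout and 3.56 FPKM in the wild-type library. C1qbp, a mitochondrial protein that binds C1q, had 56.1 FPKM in the knockout and 42.4 FPKM in the wild-type library, and Susd4 had 1.21 FPKM in the knockout and 1.06 FPKM in the wild-type library. The log2 ratios of these 2 genes, 0.40 and 0.10, turned negative relative to the median of all genes. Fcnb, Cr2, Cd55b and Csmd1 had at most 7 reads in the knockout and at most 15 reads in the wild-type library.

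**Figure D4:**
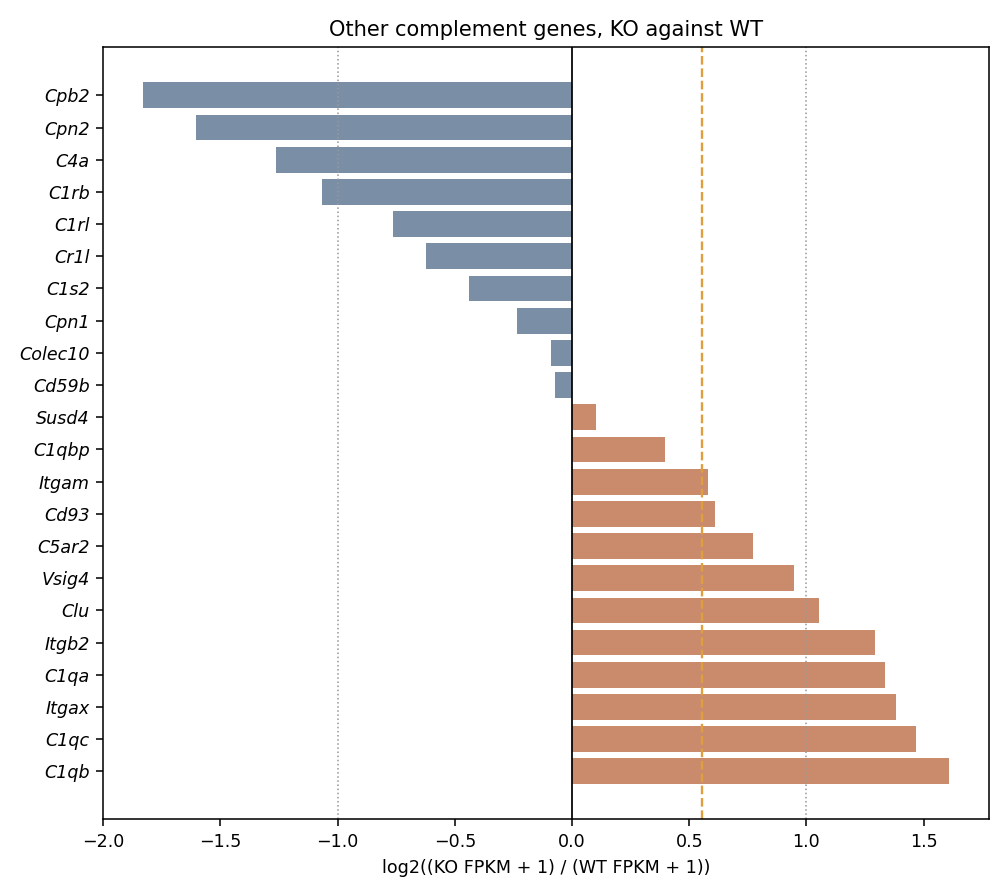
Log2 ratio of the knockout over the wild-type library for the 22 tested complement genes outside the 30 members. The solid line marks 0, the dotted lines 2-fold and the dashed line the median of all tested genes at 0.55; Cpb2 lies lowest at -1.83 and the 3 C1q chains are among the 4 highest.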

How the data were processed

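Liver RNA was measured in 1 SRSF2-/- and 1 wild-type library, with groups taken from the labelled genotype. Per the labels' protocols, frozen liver was extracted with Trizol and libraries followed Illumina procedures. The submitters' processing notes name Bowtie 0.12.2 and the mouse build mm9. The sources used here do not give the counting program, annotation release, use of strand or treatment of multiply mapping reads.

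Per the file headers, the deposited values for each RefSeq accession are a read count and its FPKM. The counts sum to 22111605 reads in the knockout and 22407743 in the wild-type table, and the FPKM values are the authors' normalization. Lines of 13 repeated accessions were summed. Of 26449 accessions, 23419 were named through RefSeq (GRCm38.p6) and GENCODE tables, giving 26440 genes, and the unnamed ones took 1.98% of the knockout and 1.99% of the wild-type reads.

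Log2 ratios used a pseudocount of 1 and a filter of 1 FPKM in either library, with a size rule of 2-fold and no p-value. Folds in the text are FPKM ratios. Their 95% intervals come from the read counts (exact Clopper-Pearson), were multiplied by 1.01, the FPKM per read in the knockout over that in the wild-type table, and cover counting error only. Intervals were tested on simulated data. All members were named, with the fixed lists of other complement genes and cell type markers, of which a few genes are not reported here. Members and lists were chosen with earlier results of these data known. The tools were pandas 2.3.3, numpy 2.4.6, matplotlib 3.10.9 and scipy 1.17.1 under Python 3.11.15.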

Additional observations from a re-analysis of the deposited data

How the results depend on the processing

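Alternatives changed 1 choice at a time. Each of the 10 members lower in the main setting stayed at least 2-fold lower under 8 settings of pseudocount, filter and scaling, the main one included. The 27 tested members kept their sign in those settings except for C6 and Serping1. The 10 lower and 3 higher members became 15 and 1 after centring, 13 and 2 without the 20 most abundant genes, 10 and 1 with a pseudocount of 5, 15 and 5 at 1.5-fold, and 6 and 0 at 4-fold. The members' median (-0.64) was -0.53 with no filter, -0.68 with a filter of 5 FPKM, -1.19 centred, -0.97 without the 20 most abundant genes, and -0.68 without C1ra, C1s1, C4b, Cd55 and Cd59a, which have close duplicates. The components' median (-1.17) was -1.09 with a pseudocount of 5, -0.96 with no filter, -1.73 centred and -1.50 without the 20 most abundant genes. The median of regulators and receptors (-0.06) turned to 0.22 with no filter and to 0.23 on the TPM scale, where Cd46 enters the list. It was -0.34 with a filter of 5 FPKM, -0.61 centred and -0.38 without the 20 most abundant genes.

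Over all genes, 368 lower and 2396 higher became 831 and 708 centred, 232 and 786 with a pseudocount of 5, 687 and 5914 at 1.5-fold, and 94 and 344 at 4-fold. The higher count was 3797 with a pseudocount of 0.1, 3628 on the TPM scale and 1208 without the 20 most abundant genes. The median of all genes was 0.63 on the TPM scale and 0.28 without the 20 most abundant genes. Using the accession with the most reads changed no member, since each has 1 accession. No paired analysis was possible because there is 1 library per genotype, and no replicate could be left out. Depth limits C7, Cfd and Cd46, with at most 30 reads in the knockout and at most 9 in the wild-type library.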
